A study of Mus musculus with 12 samples.

Results

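The receptors described here are 6 G protein-coupled receptor genes of myeloid cells, Ccr1, Ccr2, Cx3cr1, Cxcr4, Ccrl2 and Cmklr1, in the bulk RNA-seq. count table of day 3 osteoclast cultures. They were taken by gene symbol and are 6 of the 47643 genes in the table. All 6 passed the filter on low counts, which left 13681 genes for testing.

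Chemokine receptors span the membrane and couple to inhibitory G proteins, through which chemokine gradients direct the migration of monocytes and of the osteoclast precursors that derive from them. CCR2 and CX3CR1 are used to tell monocyte subsets apart, CXCR4 holds cells in the bone marrow through CXCL12, and CCR1 binds several chemokines that osteoclast lineage cells make themselves. CMKLR1 is the signalling receptor of chemerin, a chemoattractant that is not a chemokine, and CCRL2 is an atypical receptor that binds chemerin without known signalling of its own.

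The 12 libraries formed 3 groups of 4. WT mice of the BALB/c strain supplied bone marrow derived monocytes (BMMs) for every culture, which were grown with M-CSF and RANKL until harvest on day 3. The OCsCtr cultures were unstimulated, the OCsEo cultures received 2 eosinophils per BMM at day 0 and the OCsEoS cultures received eosinophil supernatant in a 1 to 2 dilution, each for 48 h, after which the cells were washed and given new medium. The eosinophils were sorted from hyper-eosinophilic IL-5tg/4get mice, which carry an IL-5 transgene and an IL-4/GFP reporter allele, so the donor cells differ in genotype from the WT cultures. Both stimulated groups are set against the same 4 OCsCtr libraries. The age of the BMM donors is not given in the sources used here, and supernatant of other cells was not analysed here.

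The libraries held 27837530 to 40327869 counts, at which 3 counts are 0.0744 to 0.108 CPM, the count of a gene scaled to the library total. Of 10 osteoclast markers, all 10 were measured in every group, and 8 were called lower in each stimulated group (edgeR adjusted p under 0.05 and a log2 fold change beyond 0.5), with a summed level of 28358 to 34496 CPM in OCsCtr, 18093 to 23205 CPM in OCsEo and 14942 to 22171 CPM in OCsEoS. Over all genes tested, 5.88% were called in OCsEo and 7.73% in OCsEoS against OCsCtr, in either direction. The summed level of 11 eosinophil markers was 57.1 to 73.7, 61.6 to 86.3 and 49.3 to 55.5 CPM in the same order, most of it Ccr3, and 3 of them (Siglecf, Alox15, Il5) were called higher in OCsEo after the stimuli had been removed and the cells washed on day 2, while 1 (Prg2) was called lower in OCsEoS. Epx, which defines the lineage, was at 0 in OCsEo 1 and 4 and at 0.479 and 0.333 CPM in OCsEo 2 and 3. It was at 0.089 and 0.177 CPM in OCsCtr 2 and 3, and at 0 in OCsCtr 1 and 4 and every OCsEoS library. The summed level of 10 neutrophil markers was 314 to 457 CPM in OCsCtr, 457 to 611 CPM in OCsEo and 358 to 427 CPM in OCsEoS. The part of these cells in the results that follow was not tested, and in bulk samples fewer cells of a type and less RNA per cell cannot be told apart.

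Ccr1, a receptor for CCL3, CCL5, CCL6, CCL7 and CCL9, was by far the most abundant of the 6. Per kilobase of gene length, its level averaged 263 CPM over the 12 libraries (range 219 to 350), against 26.4 for Cxcr4 (18.8 to 34.5), 10.2 for Ccr2 (7.21 to 12.5), 5.95 for Cx3cr1 (4.53 to 8.18), 0.78 for Cmklr1 (0.234 to 1.39) and 0.66 for Ccrl2 (0.297 to 1.45). The ranges of Ccr1, Cxcr4 and Ccr2 did not overlap. Those of Ccr2 and Cx3cr1 did, although Ccr2 was above Cx3cr1 in 12 of 12 libraries, by 1.39 to 2.15 times. Cmklr1 was above Ccrl2 in 8 of 12 libraries, so the order of these last receptors is not settled by their spread. Ccr1 made up 88.5% ± 3.09 (SD, n = 4) of the summed level per kilobase of the 6 receptors in OCsCtr, 83.4% ± 2.06 in OCsEo and 84.3% ± 1.77 in OCsEoS.

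**Figure D1:**
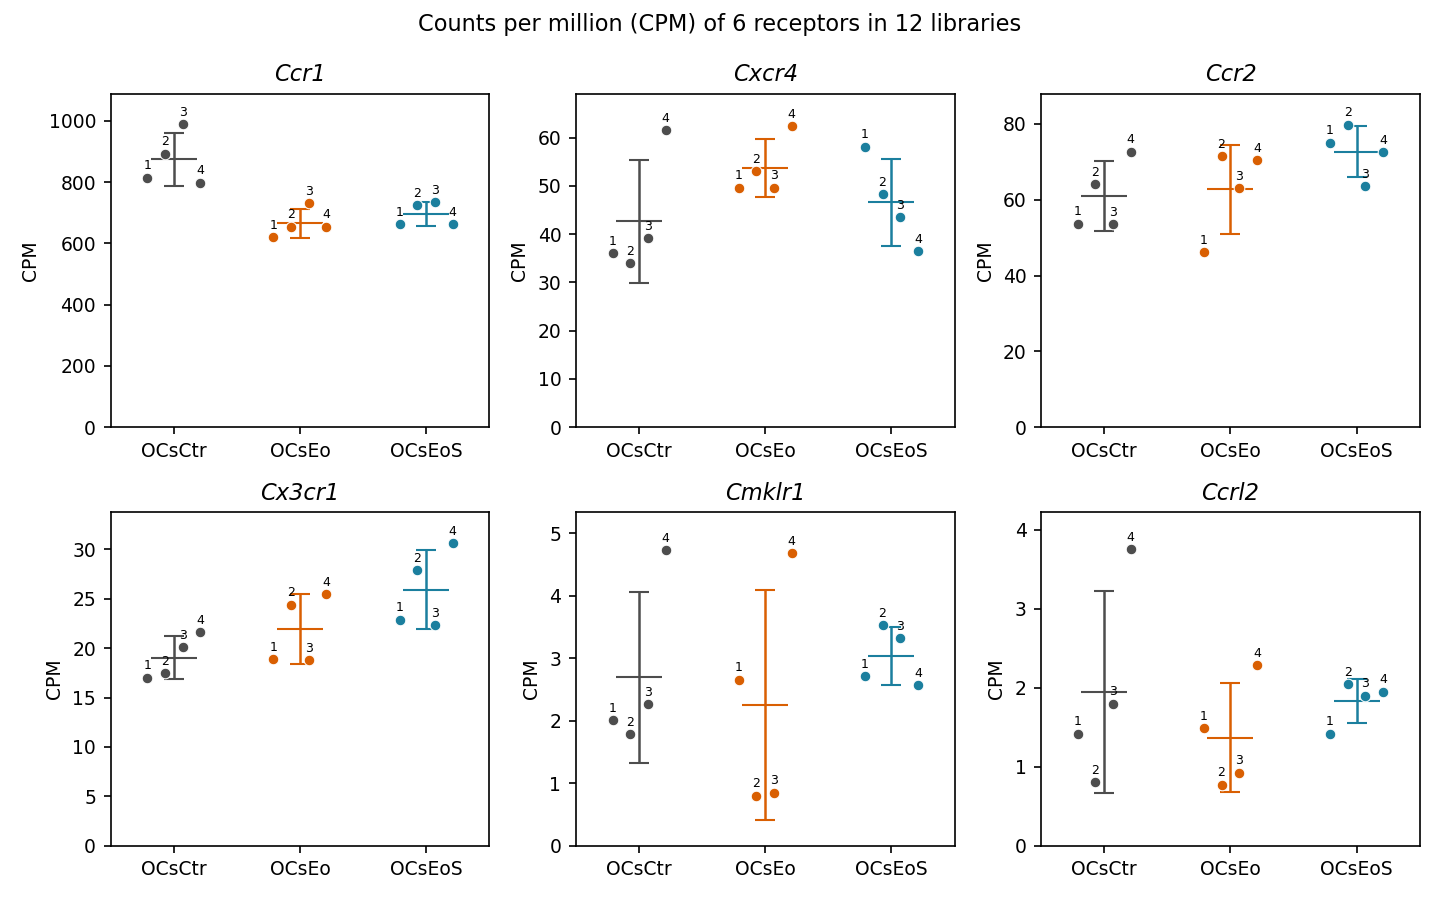
Level of each receptor gene in CPM (vertical axis, from 0) in the 12 libraries by group, where points are libraries with their replicate number, the horizontal bar is the mean and the whiskers are 1 SD (n = 4). The 4 OCsCtr libraries lie above all 8 stimulated libraries for Ccr1, the 4 OCsEoS libraries lie above all OCsCtr libraries for Cx3cr1, and OCsCtr 4 lies apart from its group for Cxcr4, Ccrl2 and Cmklr1.

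Between groups, 0 of the 6 receptors were called in any comparison when a call needed both a log2 fold change beyond 0.5 in either direction and a Benjamini-Hochberg adjusted p of edgeR's quasi-likelihood test under 0.05. Over all 13681 genes tested, 5.88% were called in OCsEo against OCsCtr, 7.73% in OCsEoS against OCsCtr and 0.38% in OCsEoS against OCsEo. At an unadjusted p under 0.05, 2 receptors (Ccr1, Cxcr4) differed in OCsEo against OCsCtr, 2 (Ccr1, Cx3cr1) in OCsEoS against OCsCtr and 0 in OCsEoS against OCsEo, and 29.7%, 34.3% and 11.1% of all genes did. DESeq2 on the same libraries also called 0 receptors in each comparison. By the adjusted p alone, 1 receptor, Ccr1, was lower in OCsEo, where 8.35% of all genes were lower and 9.06% higher. In OCsEoS, Ccr1 was lower and Cx3cr1 higher by this criterion, where 11.2% of all genes were lower and 11.8% higher. In OCsEoS against OCsEo, 0 receptors passed it, and 0.592% of all genes did. The median log2 fold change of the 6 receptors was −0.12 in OCsEo and 0.15 in OCsEoS against OCsCtr, beside −0.01 for all genes in both.

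**Figure D2:**
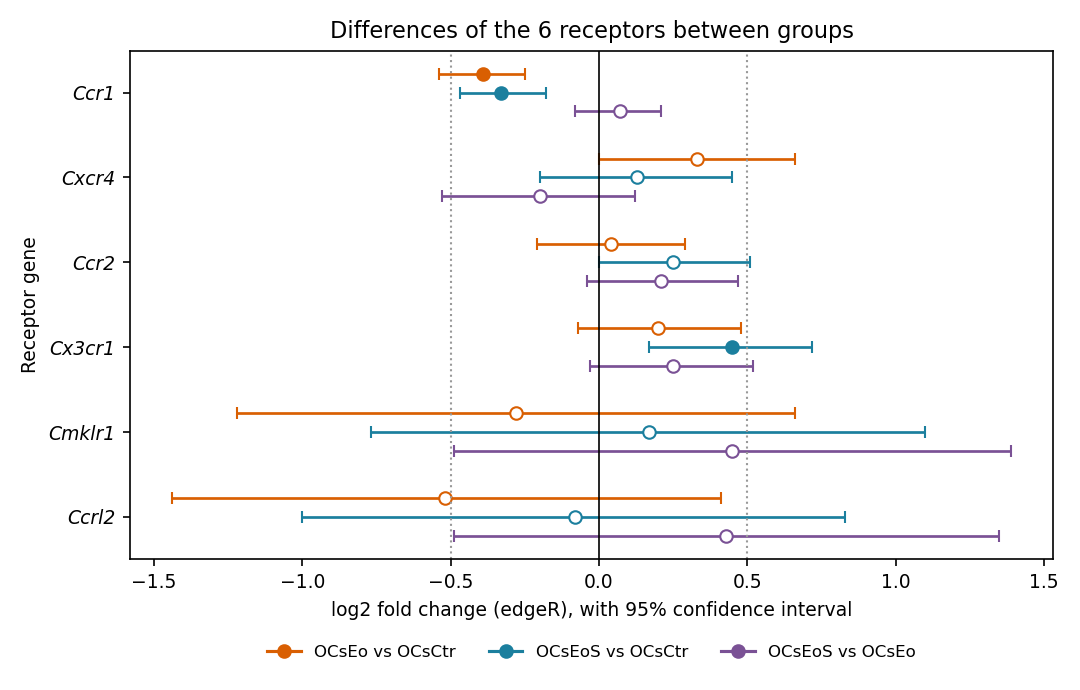
Log2 fold change of each receptor (horizontal axis) with its 95% confidence interval from edgeR for the 3 comparisons, where filled points have an adjusted p under 0.05 and dotted lines mark the fold threshold of 0.5. Filled points are Ccr1 in both stimulated groups (−0.39 and −0.33) and Cx3cr1 in OCsEoS (0.45), and the intervals of Cmklr1 and Ccrl2 are the widest.

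Ccr1 fell in both stimulated groups. The gene (ENSMUSG00000025804) lies on chr9:123962126-123968692 of GRCm38, on the minus strand, with 1 transcript of 2 exons in GENCODE vM21. Its level was 815, 893, 990 and 798 CPM in OCsCtr 1 to 4, 621, 655, 731 and 654 CPM in OCsEo and 662, 725, 735 and 662 CPM in OCsEoS. Each stimulated library was below each OCsCtr library, and the stimulated groups overlapped each other. The log2 fold change was −0.39 in OCsEo (SE 0.07, 95% confidence interval −0.54 to −0.25, edgeR adjusted p = 0.000532), so the level fell by 23.9%. In OCsEoS it was −0.33 (SE 0.07, −0.47 to −0.18, adjusted p = 0.00166), and the level fell by 20.3%. The difference between OCsEoS and OCsEo was 0.07 (interval −0.08 to 0.21, adjusted p = 0.773). Groups that do not overlap in the lower direction were found for 10.9% of all genes in OCsEo and 13.1% in OCsEoS. Both falls had an adjusted p under 0.05 in 19 of 19 other fits and stayed within the fold threshold in each, with values from −0.44 to −0.33 in OCsEo and from −0.37 to −0.26 in OCsEoS. No 50-base stretch of its transcript occurs in an annotated transcript of another gene.

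The fall of Ccr1 went along with the lower summed level of the osteoclast markers given above, whose part in it was not tested. The genes with the most similar profile over the 12 libraries, among 10631 compared by Pearson's r of log2 CPM, were Atp6v1c1 (r = 0.977), which encodes a vacuolar ATPase subunit, the phospholipid phosphatase gene Plpp1 (r = 0.976) and Scin (r = 0.975), which encodes an actin-severing protein. In OCsCtr, OCsEo and OCsEoS, their mean levels were 876, 739 and 757 CPM, 164, 126 and 131 CPM, and 307, 244 and 253 CPM.

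The 250 bases upstream of the start sites of Ccr1 and Cx3cr1, the receptors that passed the adjusted p, were read from RefSeq's promoter table (GRCm38.p6) in the direction of transcription and searched on both strands for 4 short motifs. These were GAGGAA (bound by PU.1, the factor that specifies myeloid cells), TGGAAA (bound by NFAT, which drives osteoclast genes), TGANTCA (AP-1) and CANGTG (an E-box, bound by MITF among others), and no matches of different motifs overlap in these windows. They occur in 23.3%, 18.6%, 6.7% and 39.5% of the 32851 promoters of the table over the same window. The Ccr1 window (chr9:123968693-123968942, minus strand, 43.6% G or C) holds 1 match to GAGGAA, 129 to 124 bases before the start, and 1 match to TGGAAA on the opposite strand, 98 to 93 bases before it. The Cx3cr1 window (chr9:120068297-120068546, minus strand, 53.6% G or C) holds none of the 4. Matches are in capitals.
Ccr1: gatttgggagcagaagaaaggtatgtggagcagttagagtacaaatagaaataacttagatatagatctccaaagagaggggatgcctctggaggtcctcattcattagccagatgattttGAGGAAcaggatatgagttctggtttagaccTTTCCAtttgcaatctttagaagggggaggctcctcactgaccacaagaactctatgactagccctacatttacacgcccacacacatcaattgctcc
Cx3cr1: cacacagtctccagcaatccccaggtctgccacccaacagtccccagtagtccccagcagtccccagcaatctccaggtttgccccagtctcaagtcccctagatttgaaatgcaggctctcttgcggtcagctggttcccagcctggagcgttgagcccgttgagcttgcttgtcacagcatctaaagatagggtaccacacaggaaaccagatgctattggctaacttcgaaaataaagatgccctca
In the same search, TGGAAA and CANGTG also matched in windows of Ccr2 and Ccrl2, and GAGGAA and CANGTG in that of Cmklr1. The Cxcr4 window held none of the 4. These receptors did not pass the adjusted p, so the matches are not particular to Ccr1. A match is a description of these letters only, and binding was not measured.

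Cx3cr1, the receptor of fractalkine, rose with supernatant by the adjusted p. The gene (ENSMUSG00000052336) spans chr9:119901616-120068283 on the minus strand, with 3 transcripts. Its level was 17.0, 17.5, 20.1 and 21.6 CPM in OCsCtr 1 to 4, 18.9, 24.4, 18.8 and 25.5 CPM in OCsEo and 22.9, 27.9, 22.3 and 30.6 CPM in OCsEoS. The OCsEoS libraries were all above the OCsCtr libraries, a separation in the higher direction that 12.6% of all genes showed in this comparison, while the OCsEo libraries overlapped both other groups. The log2 fold change was 0.45 in OCsEoS (SE 0.13, interval 0.17 to 0.72, adjusted p = 0.0177), 36.5% above OCsCtr. In OCsEo it was 0.20 (interval −0.07 to 0.48, adjusted p = 0.334). OCsEoS was 0.25 above OCsEo (interval −0.03 to 0.52, adjusted p = 0.51), so a different response to supernatant and cells was not shown. The adjusted p stayed under 0.05 in 16 of 19 other fits and was lost without OCsCtr 1 (0.39, adjusted p = 0.0631), OCsCtr 2 (0.42, adjusted p = 0.0536) or OCsEoS 4 (0.36, adjusted p = 0.0682). The value passed the fold threshold without OCsCtr 4 (0.51), OCsEoS 1 (0.51) or OCsEoS 3 (0.52). Of 9 monocyte or macrophage markers, all tested, 2 were called higher in the same comparison, Adgre1 (0.56, adjusted p = 0.000297) and Cd14 (0.69, adjusted p = 4.56e-07), and 1 lower, Csf1r (−0.57, adjusted p = 3.33e-05). Over all genes tested, 7.73% were called in this comparison, in either direction. The summed level of the 9 markers was 1348 to 1635 CPM in OCsEoS against 1621 to 1875 CPM in OCsCtr. The part of these markers in the Cx3cr1 value was not tested.

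The span of Cx3cr1 overlaps 9 other annotated genes. Of these, the spans of Wdr48 and the antisense Gm33858, introns included, reach Cx3cr1 exons on the opposite strand. Whether their exons overlap those of Cx3cr1 was not examined. Whether reads were counted by strand is not given in the sources used here. Wdr48 had 8122 counts over the 12 libraries, Cx3cr1 had 8881, and the log2 fold change of Wdr48 in OCsEoS was −0.14 (adjusted p = 0.369). Within libraries, Cx3cr1 had 2.19 ± 0.344 counts per 100 Ccr1 counts in OCsCtr (SD, n = 4, range 1.96 to 2.70), 3.31 ± 0.612 in OCsEo (2.58 to 3.89) and 3.74 ± 0.676 in OCsEoS (3.03 to 4.62). The ratio restates the changes of both genes and is no further test of either. The most similar profiles were those of Tmem107 (r = 0.885), Plrg1 (r = 0.878) and Ccbl2 (r = 0.875).

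Ccr2, the receptor through which CCL2 and CCL7 call monocytes out of the bone marrow, did not pass the test in any comparison. The gene (ENSMUSG00000049103) lies on chr9:124101950-124113557 on the plus strand, with 4 transcripts. Its level was 53.7, 64.1, 53.5 and 72.7 CPM in OCsCtr 1 to 4, 46.1, 71.4, 63.0 and 70.5 CPM in OCsEo and 75.0, 79.8, 63.5 and 72.5 CPM in OCsEoS. All groups overlapped, and the highest OCsCtr library was above the lowest OCsEoS library. The log2 fold change was 0.04 in OCsEo (interval −0.21 to 0.29, adjusted p = 0.873) and 0.25 in OCsEoS (SE 0.12, adjusted p = 0.147, unadjusted p = 0.0505 from edgeR). Without OCsCtr 4 the OCsEoS value was 0.35, with an adjusted p of 0.0599. Of the 50-base stretches of its transcripts, 2.2% also occur in other genes. The most similar profiles were those of Rasip1 (r = 0.876), Tnfrsf14 (r = 0.805) and 2310039H08Rik (r = 0.802).

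Cxcr4, the receptor of CXCL12, depended on 1 control library. The gene (ENSMUSG00000045382) lies on chr1:128588199-128592293 on the minus strand, with 2 transcripts. Its level was 36.0, 34.0, 39.1 and 61.5 CPM in OCsCtr 1 to 4, 49.6, 53.1, 49.6 and 62.4 CPM in OCsEo and 58.1, 48.3, 43.5 and 36.5 CPM in OCsEoS. The OCsEo libraries were above OCsCtr 1 to 3 without overlap, whereas OCsCtr 4 was within the OCsEo range. The log2 fold change in OCsEo was 0.33 (SE 0.16, interval 0.00 to 0.66, adjusted p = 0.163). Without OCsCtr 4 it was 0.56 with an edgeR adjusted p of 0.00558, which would be a call, and over all 19 other fits it was 0.24 to 0.56. Without the filter on low counts it stayed at 0.33, with an adjusted p of 0.0284. In OCsEoS the log2 fold change was 0.13 (interval −0.20 to 0.45, adjusted p = 0.629), and OCsEoS less OCsEo gave −0.20 (interval −0.53 to 0.12, adjusted p = 0.664). OCsCtr 4 had the highest summed level of the monocyte or macrophage markers among the 12 libraries, at 1875 CPM against 1348 to 1695 CPM in the others, and the part of this in the Cxcr4 value was not tested. The most similar profiles were those of Ptafr (r = 0.914), the receptor gene of platelet-activating factor, of the transcription factor gene Maf (r = 0.906) and of Lgmn (r = 0.898), which encodes a lysosomal protease.

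Ccrl2 and Cmklr1, which both bind chemerin, had the lowest counts of the 6, with 27 to 121 and 30 to 152 counts per library. Ccrl2 (ENSMUSG00000043953, chr9:111054486-111057519, minus strand, 3 transcripts) was at 1.42, 0.801, 1.80 and 3.76 CPM in OCsCtr 1 to 4, 1.49, 0.771, 0.923 and 2.29 CPM in OCsEo and 1.42, 2.05, 1.90 and 1.95 CPM in OCsEoS. Cmklr1 (ENSMUSG00000042190, chr5:113612354-113650426, minus strand, 4 transcripts) was at 2.01, 1.78, 2.27 and 4.73 CPM in OCsCtr 1 to 4, 2.66, 0.798, 0.846 and 4.68 CPM in OCsEo and 2.71, 3.53, 3.32 and 2.57 CPM in OCsEoS. For both genes the groups overlapped, and replicate 4 was the highest library of OCsCtr and of OCsEo. For Ccrl2 and Cmklr1 the coefficient of variation was 65.8% and 50.7% in OCsCtr and 50.2% and 81.9% in OCsEo, above that of the other 4 receptors in these groups. In OCsEoS it was 15.3% and 15.5%, within the range of the others (5.68% to 19.4%).

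The log2 fold change of Ccrl2 was −0.52 in OCsEo (interval −1.44 to 0.41, adjusted p = 0.487) and −0.08 in OCsEoS (interval −1.0 to 0.83, adjusted p = 0.924). That of Cmklr1 was −0.28 in OCsEo (interval −1.22 to 0.66, adjusted p = 0.742) and 0.17 in OCsEoS (interval −0.77 to 1.10, adjusted p = 0.839). These intervals leave room for changes larger than any found for the other receptors, so a difference was not detectable at this spread between libraries. Without OCsCtr 4 the OCsEo values were 0.02 and 0.14, with the opposite sign.

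Over the 12 libraries, the log2 CPM of Ccrl2 and Cmklr1 rose and fell together, with Pearson's r = 0.88 and Spearman's rho = 0.91 (two-sided permutation tests with 100000 resamples, p = 4e-05 and p = 8e-05, adjusted over 15 pairs of receptors p = 0.0006 and p = 0.0012). The permutations moved libraries across groups, so these p take no account of group or of a possible link between same-numbered libraries. Without OCsCtr 4 and OCsEo 2, the libraries farthest from the median of Ccrl2, r was 0.82. The deviations from the group means gave r = 0.86, so the relation was also there within groups, where it was not tested. Of the other 14 pairs, the strongest was Ccr2 with Cx3cr1 (r = 0.71, rho = 0.69, permutation tests, adjusted p = 0.074 and p = 0.12, 0.61 within groups). Ccr1 had its lowest r with Cxcr4 (−0.53, adjusted permutation p = 0.35). Casp9 stood among the 3 most similar profiles of both Ccrl2 (r = 0.873) and Cmklr1 (r = 0.865). The others were Gbp3 (r = 0.890) for Ccrl2, and Itsn1 (r = 0.880) and Cd274 (r = 0.867) for Cmklr1.

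**Figure D3:**
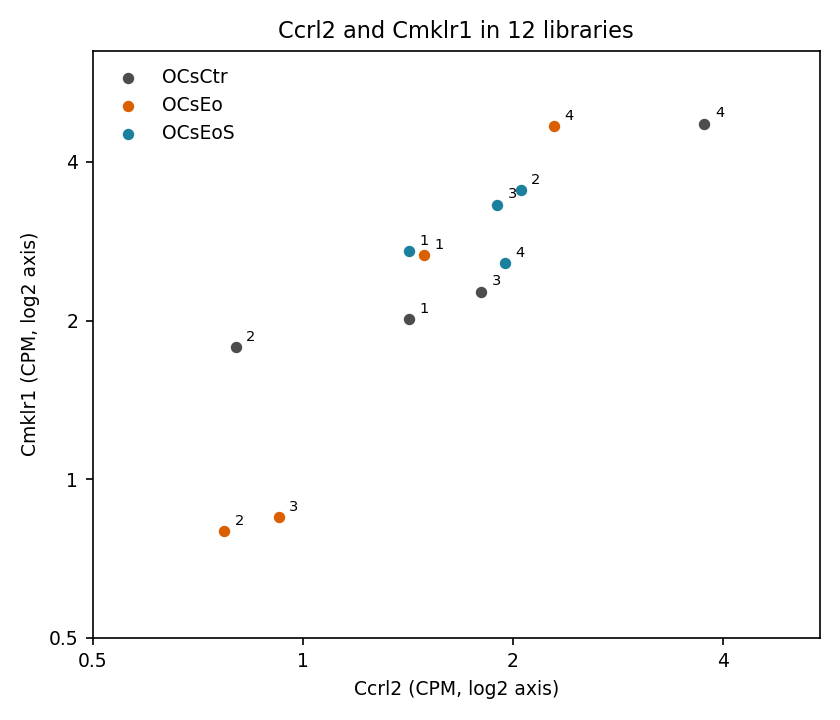
Cmklr1 (vertical axis) against Ccrl2 (horizontal axis) in CPM on log2 axes, where each point is a library, coloured by group and numbered by replicate. The libraries lie along a rising line (r = 0.88 over the 12 libraries), from OCsEo 2 and OCsEo 3 at the lower end to OCsCtr 4 and OCsEo 4 at the upper end.

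Ccr1 and Ccr2 lie in a cluster of chemokine receptor genes on chromosome 9, which also holds Ccr3. Counted from the start site of Ccr1, Ccr3 begins after 53.3 kb and Ccr2 after 133.3 kb, and of the 3 genes Ccr1 is on the minus strand and the others on the plus strand. Ccr3, the eotaxin receptor, had a log2 fold change of −0.29 in OCsEo (SE 0.08, adjusted p = 0.0164) and −0.23 in OCsEoS (SE 0.08, adjusted p = 0.0442), both within the fold threshold, and the adjusted p stayed under 0.05 in 16 and 8 of 19 other fits. Ccr3 is also a marker of eosinophils, which only the OCsEo cultures received. Its mean level was highest in OCsCtr, at 51.3 to 65.6 CPM against 45.7 to 53.2 CPM in OCsEo and 47.3 to 53.0 CPM in OCsEoS. The part of eosinophils in these values was not tested. Of the 18 other chemokine receptors counted here, Ccr3 included, 10 passed the filter. By edgeR 1 of them, Ccr3, had an adjusted p under 0.05 in a comparison. Over all genes, 8.35% were lower in OCsEo and 11.2% in OCsEoS by this criterion. Others of these receptors near Ccr1, such as Ccr1l1, Cxcr6 and Xcr1, averaged under 0.5 CPM.

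**Figure D4:**
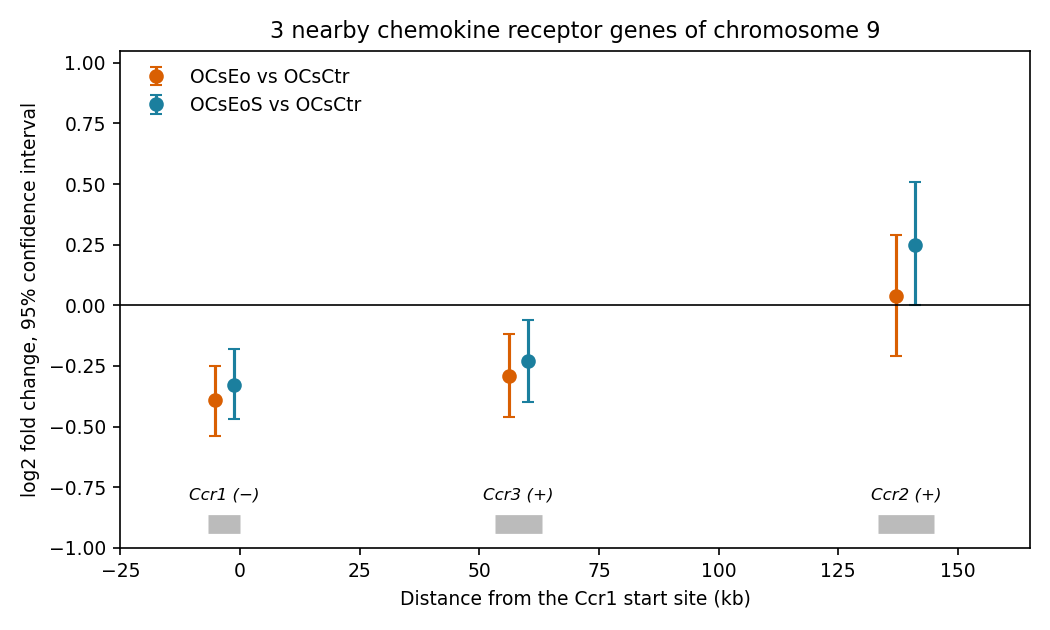
Log2 fold change with its 95% confidence interval (vertical axis) of 3 receptor genes at their distance from the Ccr1 start site in kb (horizontal axis), for OCsEo and OCsEoS against the shared OCsCtr libraries, with grey bars for the gene bodies and their strand. Ccr1 and Ccr3 lie below 0 in both comparisons, and Ccr2 lies at 0.04 in OCsEo and 0.25 in OCsEoS, with intervals that reach 0.

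Of 13 genes listed as ligands of the 6 receptors, 10 passed the filter. Eosinophils went with 4 ligands called higher (Ccl2, Ccl3, Ccl6, Ccl7) and 0 lower, and supernatant with 4 called higher (Ccl2, Ccl4, Ccl6, Ccl7) and 0 lower, with median log2 fold changes of 0.95 and 0.53. Over all genes tested, 5.88% and 7.73% were called in either direction in these comparisons. This list, like those below, was chosen with earlier results of these data known, so its counts are no test of the list. Ccl9, a CCR1 ligand made by osteoclasts, was the most abundant, at 2552, 2885, 2989 and 2508 CPM in OCsCtr, 3051, 2783, 3357 and 3017 CPM in OCsEo and 3061, 3017, 3317 and 3290 CPM in OCsEoS. On the log2 scale its difference from OCsCtr was 0.16 for OCsEo (adjusted p = 0.0938) and 0.21 for OCsEoS (adjusted p = 0.0188), within the fold threshold.

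The CCR1 ligand Ccl6 rose more with cells than with supernatant. It was at 43.6 to 69.2 CPM in OCsCtr, 112 to 146 CPM in OCsEo and 73.9 to 91.7 CPM in OCsEoS, 3 ranges without overlap. Groups that do not overlap in the higher direction were found for 10.5% of all genes in OCsEo and 12.6% in OCsEoS against OCsCtr. The log2 fold change of Ccl6 was 1.12 in OCsEo (SE 0.11, adjusted p = 1.34e-06) and 0.54 in OCsEoS (SE 0.11, adjusted p = 0.00142, and under the fold threshold without OCsCtr 1, at 0.42). OCsEoS less OCsEo was −0.59 (adjusted p = 0.0148), a call lost without OCsEo 3, OCsEoS 3 or OCsEoS 4. Ccl3, which also binds CCR1, was at 2.5 to 4.81 CPM in OCsCtr, 6.65 to 10.5 CPM in OCsEo and 3.06 to 5.27 CPM in OCsEoS, with a log2 fold change of 1.28 for OCsEo (adjusted p = 0.000947) and 0.22 for OCsEoS (adjusted p = 0.584). OCsEoS less OCsEo was −1.06 (adjusted p = 0.0439), a call lost without OCsCtr 1, OCsEo 1, OCsEo 2, OCsEo 3, OCsEoS 3 or OCsEoS 4. The part of eosinophils in the Ccl6 and Ccl3 values was not tested. Ccl2 and Ccl7, ligands of CCR2, rose in both groups. On the log2 scale Ccl2 rose by 1.12 with eosinophils (adjusted p = 0.000437) and 1.34 with supernatant (adjusted p = 6.42e-05), and Ccl7 by 1.29 (adjusted p = 0.000934) and 2.04 (adjusted p = 1.12e-05). Ccl12, another CCR2 ligand, had a log2 fold change of 1.95 (adjusted p = 0.12) and 2.29 (adjusted p = 0.0564) and averaged 0.215, 0.851 and 1.07 CPM in OCsCtr, OCsEo and OCsEoS. The ligands of the other receptors were near 0, with Cx3cl1 at 0.434, 0.293 and 0.632 CPM and Cxcl12 at 0.823, 0.457 and 0.724 CPM in OCsCtr, OCsEo and OCsEoS. Rarres2, which encodes chemerin, was at most at 0.0445 CPM in any group mean, under the level of 3 counts.

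**Figure D5:**
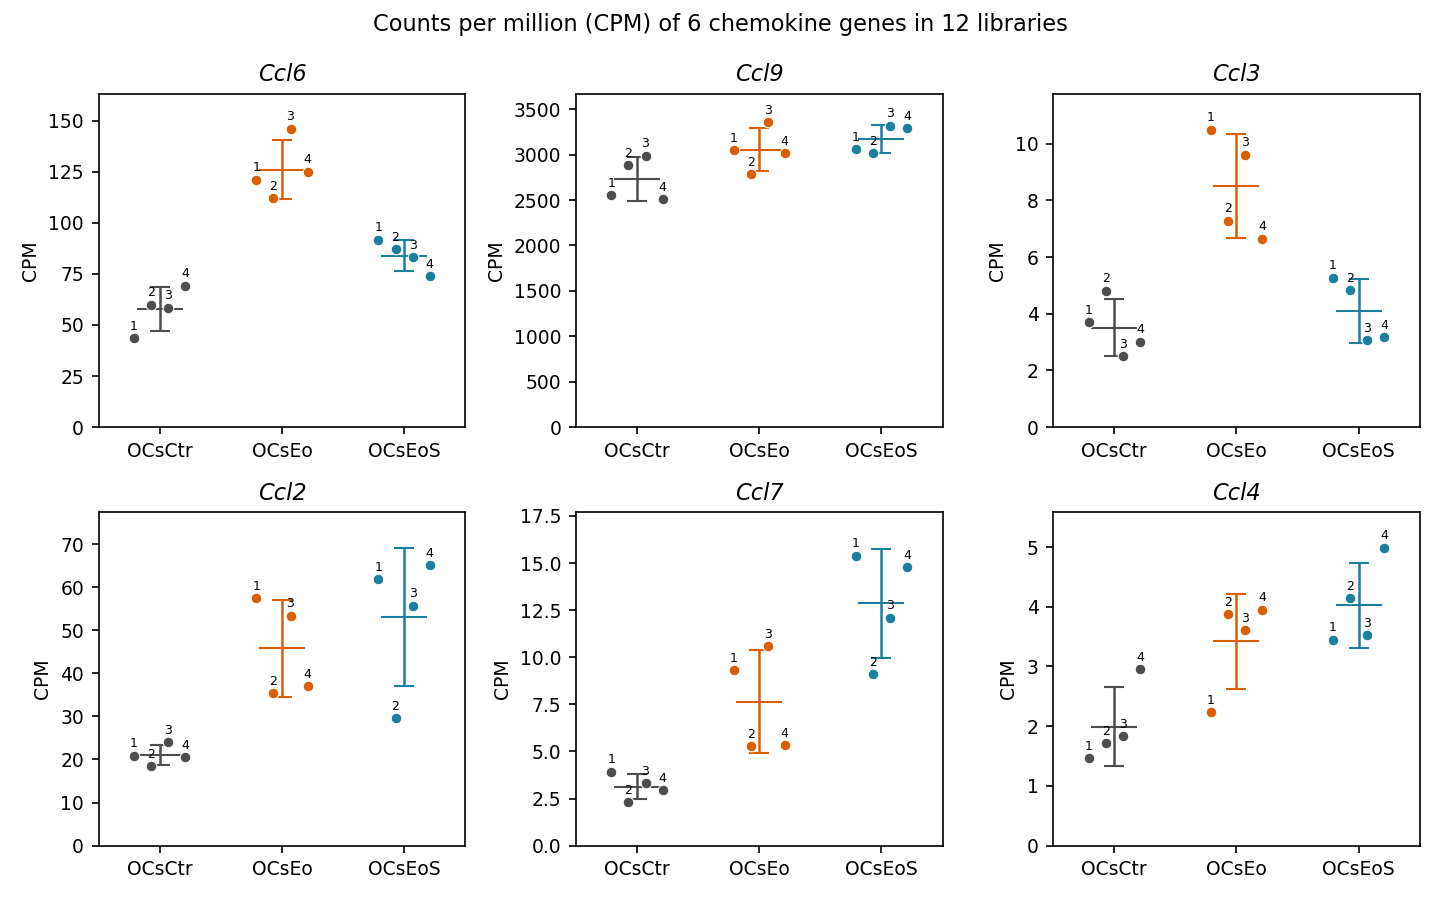
Level in CPM (vertical axis, from 0) of 6 chemokine genes in the 12 libraries by group, where points are libraries with their replicate number, the horizontal bar is the mean and the whiskers are 1 SD (n = 4). Ccl6 and Ccl3 are highest in OCsEo, Ccl2 and Ccl7 are above OCsCtr in all 8 stimulated libraries, and Ccl4 is above all OCsCtr libraries in OCsEoS. Over all genes, 10.5% in OCsEo and 12.6% in OCsEoS lay above OCsCtr without overlap.

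Receptors of other chemoattractants included 3 that rose with both stimulations. Of 13 in the table, 10 passed the filter, and C3ar1, C5ar1 and S1pr1 were called higher in both stimulated groups, with 0 called lower. Over all genes tested, 5.88% were called in OCsEo and 7.73% in OCsEoS against OCsCtr, in either direction. C3ar1, the receptor of complement C3a, went from 92.0 to 143 and 137 CPM (log2 fold changes 0.64 and 0.57, adjusted p = 0.000281 and 0.000526), and C5ar1, the receptor of C5a, from 26.8 to 39.2 and 38.5 CPM (0.55 and 0.52, adjusted p = 0.00551 and 0.00608). S1pr1, a receptor of sphingosine 1-phosphate that guides osteoclast precursors to the blood, went from 7.65 to 11.9 CPM in OCsEo and 12 CPM in OCsEoS (0.64 and 0.65, adjusted p = 0.0237 and 0.0168). Gpr183, the receptor of oxysterols that guides osteoclast precursors to bone, had a log2 fold change of −0.22 with eosinophils (adjusted p = 0.04) and −0.10 with supernatant (adjusted p = 0.36).

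Downstream of the receptors, the 14 listed genes of G protein signalling all passed the filter, with a median log2 fold change of 0.04 in OCsEo and 0.03 in OCsEoS. With eosinophils, 1 of the 14 was called higher (Gng2, 0.61, adjusted p = 0.000615) and 0 lower. With supernatant, 2 of the 14 were called lower and 0 higher. These were Plcb2 (−0.59, adjusted p = 0.00013), a phospholipase that the G protein beta and gamma subunits activate, and Rac2 (−0.60, adjusted p = 6.11e-06), a GTPase of haematopoietic cells. Over all genes tested, 5.88% were called with eosinophils and 7.73% with supernatant, in either direction. Rac2 was at 849 to 948 CPM in OCsCtr, 659 to 781 CPM in OCsEo and 544 to 677 CPM in OCsEoS, so the controls lay above both stimulated groups. Such a separation in the lower direction was found for 10.9% of all genes in OCsEo and 13.1% in OCsEoS. By the adjusted p alone, 3 of the 14 were higher and 2 lower in each stimulated group against OCsCtr. Over all genes, 9.06% were higher and 8.35% lower in OCsEo, and 11.8% and 11.2% in OCsEoS. Among the 14, Gng2 was also higher with supernatant (0.39, adjusted p = 0.0118). Plcb2 and Rac2 were also lower with eosinophils (−0.45 and −0.33, adjusted p = 0.00177 and 0.00153). These values lay within the fold threshold. Between OCsEoS and OCsEo, Gng2, Plcb2 and Rac2 did not pass (adjusted p = 0.475, 0.618 and 0.0756). Of 13 measured genes that turn receptor signals off, Rgs18, whose protein speeds the inactivation of G proteins, was called higher in both groups (0.87 and 0.89, adjusted p = 0.000101 and 5.47e-05), and Rgs2 was called higher in OCsEo (0.61, adjusted p = 0.000302). Of the 13, 2 were higher and 2 lower in OCsEo by the adjusted p alone, and 3 and 3 in OCsEoS. Among these, the receptor kinase gene Adrbk2 was lower in both (−0.43 and −0.48, adjusted p = 0.000215 and 6.11e-05) within the fold threshold. The arrestin genes moved apart in OCsEoS, with Arrb1 at −0.31 (adjusted p = 0.00652) and Arrb2 at 0.26 (adjusted p = 0.0365). In OCsEo they were at −0.19 and 0.20 (adjusted p = 0.0972 and 0.121). Between OCsEoS and OCsEo, Arrb1 and Arrb2 did not pass (adjusted p = 0.616 and 0.854). Rgs2 was lower in OCsEoS than in OCsEo (−0.47, adjusted p = 0.0345), within the fold threshold.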

How the data were processed

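Total RNA of 12 day 3 osteoclast cultures was sequenced with a NEBNext Ultra library kit. Paired-end reads were cleaned with fastp and aligned to GRCm38/mm10 with HISAT2 (2.0.5). The authors then ran featureCounts and deposited its raw counts for each gene. The annotation release and the strand setting are not given in the sources used here. The 6 receptors and all gene lists were chosen with earlier results of these data known.

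Genes with low counts were removed with filterByExpr (minimum count 10), TMM factors were 0.968 to 1.03, and 1 edgeR (4.0.16) quasi-likelihood fit in R (4.3.3) over all 12 libraries gave every log2 fold change, SE and interval. Each adjusted p of a gene is that of this edgeR test over 13681 genes. A call needed a log2 fold change beyond 0.5 in either direction with an adjusted p under 0.05, thresholds taken from the methods of the study. CPM were computed with TMM scaling, and CPM per kilobase with the gene lengths of the table. The study describes its replicates as biological and its data points as individual mice, but whether same-numbered libraries share a mouse is not given in the sources used here. The closest replicates differed with a chi-square of 10.2 per degree of freedom, so none was taken for a repeat of another.

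The genes named are the 6 receptors, the called genes of the lists, and for each receptor the 3 genes with the highest Pearson correlation of log2 CPM (prior count 2) over the libraries. Rows of the lists named for their roles or position without a call (Ccr3, Ccl9, Gpr183, Adrbk2, Arrb1, Arrb2, Ccr1l1, Cxcr6, Xcr1), and Wdr48, Ccl12, Cx3cl1, Cxcl12 and Rarres2, were chosen after their values were seen. Deviations of same-numbered libraries correlated at most weakly, and the numbers were not taken as pairs. Alternatives were DESeq2 (1.42.0), its size factors, upper-quartile scaling, no filter, a stricter filter, fits of 2 groups, a replicate block, other fold thresholds and each library left out in turn. Of the listed chemokine receptors, 1 gene is not reported here. Coordinates are those of the table, on GRCm38, and transcripts and overlaps come from GENCODE vM21.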

Additional observations from a re-analysis of the deposited data

Results flagged for a closer look

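In OCsCtr, the Cmklr1 level of OCsCtr 4 was 4.73 CPM, against 1.78 to 2.27 CPM in the other 3 libraries, a gap above Dixon's critical value for 4 samples. It was the only one of 18 groups of 4 examined (6 receptors in 3 groups), a rule by which chance marks about 1 group in 20. The same library was also the highest of its group for Cxcr4, Ccr2, Cx3cr1 and Ccrl2, and the lowest for Ccr1.

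The changes of Ccl3 and Ccl6 with supernatant were smaller than those with eosinophils, by −1.06 (edgeR adjusted p = 0.0439) and −0.59 (adjusted p = 0.0148) on the log2 scale, and were called in 13 and 16 of 19 other fits. None of the 6 receptors differed between the stimulations by this test. The part of eosinophils in the Ccl3 and Ccl6 values was not tested.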

How the results depend on the processing

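Of 342 refitted log2 fold changes of the receptors, 328 kept their sign and whether they were called, 10 changed sign and 4 were called where the reported value was not. A value among the 328 can still cross a single threshold, as the adjusted p of Cx3cr1 in OCsEoS did without OCsCtr 1 (0.0631). Leaving out single libraries gave −0.03 to 0.16 for Ccr2, 0.24 to 0.56 for Cxcr4, −0.87 to 0.02 for Ccrl2 and −0.92 to 0.14 for Cmklr1 in OCsEo, and 0.36 to 0.52 for Cx3cr1 and −0.34 to 0.45 for Ccrl2 in OCsEoS. The number of receptors called was then 0 to 1 in OCsEo and 0 to 1 in OCsEoS, and the number of genes called between OCsEoS and OCsEo was 17 to 62. Without a fold threshold 1 receptor was called in OCsEo and 2 in OCsEoS, and 2382, 3151 and 81 genes in the 3 comparisons. With a threshold of 1, 136, 160 and 21 genes were called. Without the filter on low counts, 100 genes were called between OCsEoS and OCsEo.

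Deviations of same-numbered libraries from their group means had correlations of −0.04 to 0.09, beside −0.12 to 0.12 for other pairs, and 10 of the 12 same-numbered values were above 0. In 17 of 24 comparisons of a library with another group, it correlated best with its own number, a hint from the data of a weak shared effect. None of the same-numbered values passed 0.1, so the numbers were not taken to pair the samples. A replicate block turned Ccrl2 in OCsEoS to 0.13 and changed no other sign and no call, although the adjusted p of Ccr2 in OCsEoS was then 0.0499 at a log2 fold change of 0.26. The values of Ccrl2 and Cmklr1 rested on 27 to 152 counts per library, and the causes of the changes listed were not tested.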
